A study of Homo sapiens with 16 samples.

Results

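The comparison described here set H9 human embryonic stem cells treated with siOCT4, an siRNA that targets OCT4, at 1% oxygen (siOCT4 cells at 1%) against H9 cells with a control siRNA, marked NC in the labels, at 20% oxygen (control cells at 20%). Both factors differ between these groups, so their parts in a difference cannot be told apart here. Its members are 4 of the 8 columns of the deposited table, 2 per group, chosen by their labels, and each column rests on 1 library of total RNA and 1 of RNC, so on 8 of the 16 libraries. Of the 28252 genes listed, the 15864 with a ratio in all 8 columns were tested. The other 4 columns hold siOCT4 cells at 20% and control cells at 1% oxygen, 2 each, with 1 factor changed in either. H9 is a single line, and all groups were grown without feeder cells in mTeSR1 medium. Each column is named a culture below. Separate growth of the replicates is not stated, so p-values measure only the spread between these samples, which may be technical.

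RNC stands for ribosome-nascent chain complexes, that is ribosomes with the growing peptide and the mRNA they read. The translation ratio of a gene is its RNC value over its total RNA value, and mRNAs that recruit ribosomes well have a high ratio. OCT4, the protein of POU5F1, is a transcription factor on which the pluripotent state depends. Low oxygen stabilises HIF transcription factors and, like other stress, can slow translation through eIF2 phosphorylation and through mTORC1, the kinase complex that controls mRNAs with a 5′ terminal pyrimidine tract. A ratio cannot separate a change of ribosome-bound RNA from one of total RNA, nor a change in all cells from one in some of them. It is not a level, so the defining markers of H9 cells could not be checked as levels, and neither counts nor depth are known.

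In all 4 cultures compared the ratio fell steeply with GC content of the transcript, and GC explained 63.5% to 70.8% of the spread in log2 ratio, against 0.0897% to 14.1% in the other 4. The values below are of ratios as deposited. Relative to each culture's GC trend ("GC corrected"), no gene chosen by the naming rule moved its fold by more than 1.5 times. Replicates differed by a median of 0.17 (log2) per gene in siOCT4 cells at 1% and 0.36 in control cells at 20%, and the group means by 0.53. Folds are ratios of geometric means and log2 differences are siOCT4 at 1% minus control at 20%, ± SE from limma, with n = 2 cultures per group throughout.

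POU5F1, the target of the siRNA, had ratios of 0.758 and 0.981 in control cells at 20% and 0.453 and 0.532 in siOCT4 cells at 1%. It was 1.76-fold lower (-0.81 ± 0.22, limma adjusted p = 0.0452), and both siOCT4 values lay below both control values. With siOCT4 at 20% its ratios were 1.41 and 1.42, and the controls at 1% had 1.13 and 0.810. The call was lost in 6 of the 8 fits without 1 culture, with limma adjusted p of 0.0557 and 0.134 without control replicate 1 or 2 at 20%, 0.189 and 0.106 without siOCT4 replicate 1 or 2 at 1%, and 0.0888 without either siOCT4 culture at 20%. GC corrected (-0.86 ± 0.14, adjusted p = 0.00811), it held in all 8. As deposited it was also lost with a replicate block (limma adjusted p = 0.0832), in a fit on the 2 groups alone (0.0999) and with quantile normalization (0.274). These are ratios, and how far the siRNA lowered the RNA was not tested.

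Across the transcriptome, mRNAs of long open reading frames had gained and mRNAs of short ones had lost in ratio. Of 15864 genes, 4207 (26.5%) passed limma's test at an adjusted p under 0.05, with 2135 (13.5%) higher and 2072 (13.1%) lower in siOCT4 cells at 1%. At least 2-fold changes were called for 1122 genes higher and 1118 lower, and at least 4-fold changes for 153 and 120. The 2 cultures of one group both lay above both of the other for 64.9% of genes. With the columns centred on their medians, which moved the median difference of all genes from 0.01 to -0.17, 1518 genes were higher and 2973 lower. GC corrected, 2755 (17.9%) were higher and 2902 (18.9%) lower. Without siOCT4 replicate 1 at 1% the counts were 485 and 505 as deposited, without replicate 2 691 and 709, and without a siOCT4 culture at 20% 1420 and 1261 or 1428 and 1257. GC corrected, they were 1456 and 1494 without siOCT4 replicate 1 at 1% and 1689 and 1772 without replicate 2.

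Coding length ordered the differences more than any other feature examined. Among 1069 mRNAs coding for less than 500 bases the median difference was -0.81, 45.7% were called lower and 2.90% higher. In steps of coding length up to 1000, 2000 and 4000 bases the medians were -0.42, -0.02 and 0.33. For the 1110 mRNAs of 4000 bases and over the median was 0.69, 39.4% were called higher and 0.631% lower. With each culture's trends with GC content and transcript length subtracted, the medians still ran from -0.44 for the shortest to 0.19 for the longest coding lengths. The Spearman correlation with coding length over 14262 mRNAs was 0.479, against 0.387 for transcript length, 0.136 for the 3′ UTR, 0.0934 for GC content and 0.0166 for the 5′ UTR. These are correlations across genes of the same libraries, and genes are not independent replicates.

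The gradient lay in the siOCT4 cells at 1%. Their median ratios were 0.863 and 0.886 for the shortest open reading frames and 2.12 in both cultures for the longest. Control cells at 20% were nearly level, from 1.31 and 1.39 for the shortest to 1.10 and 1.11 for the longest. With siOCT4 at 20% the medians ran the other way, from 1.30 and 1.35 to 0.856 and 0.800, as they did for controls at 1%, from 1.16 and 1.01 to 0.724 and 0.801. RNAs that code for no long protein can be ordered by transcript length only. There lincRNAs and antisense RNAs under 1000 bases had a median difference of -0.22 (142 genes). Those of 4000 to 8000 bases had one of 0.22 (58 genes), and the Spearman correlation was 0.188 over 611 genes. For mRNAs of these transcript lengths the medians were -0.84 and 0.24, and the correlation over all lengths was 0.387. However, 195 of 263 lincRNAs and 299 of 348 antisense RNAs shared a ratio with at least 2 other genes of a culture. This happens at small read numbers, so the trends cannot be compared closely. The cause of the length trend was not tested.

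**Figure D1:**
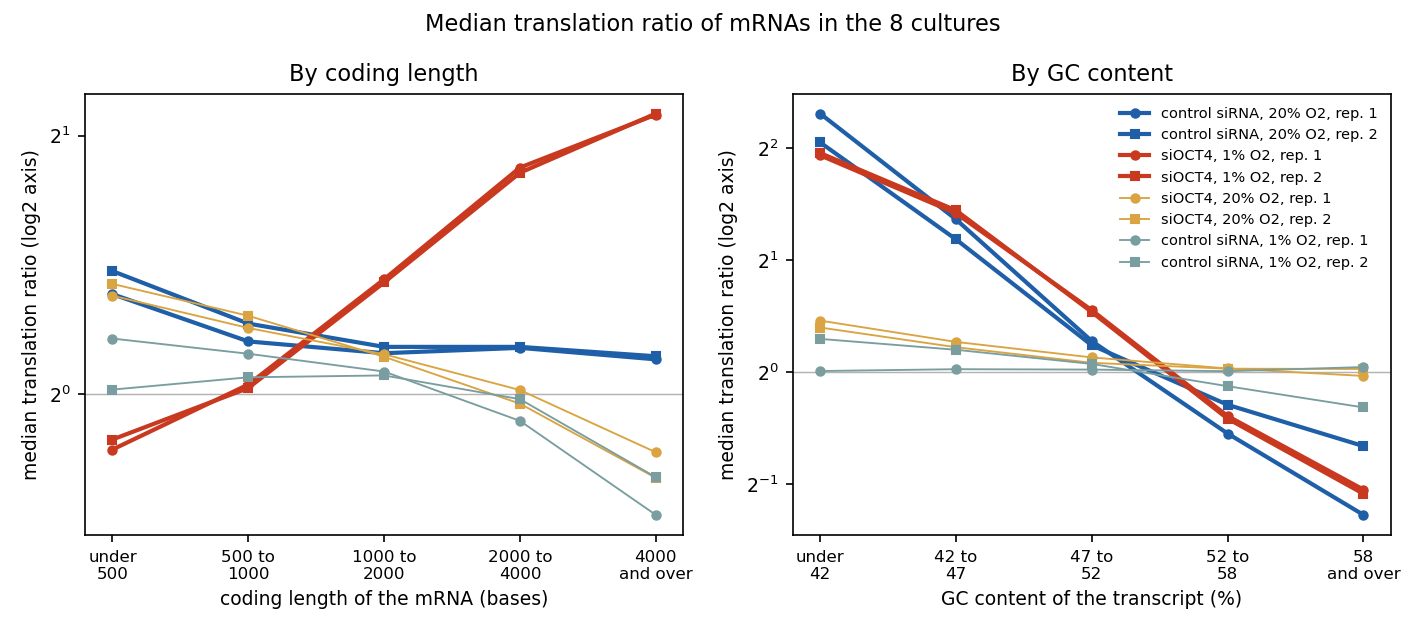
Median translation ratio of mRNAs (log2 axis) in each of the 8 cultures, by coding length (left, 1069 to 5538 mRNAs per point) and by GC content of the transcript (right, 2302 to 3485 mRNAs per point). Only the siOCT4 cultures at 1% oxygen rise with coding length, from 0.863 and 0.886 to 2.12, while the siOCT4 cultures at 1% and the control cultures at 20% both fall with GC content.

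Cytosolic ribosomal proteins, the structural proteins of the ribosome, had lower ratios in siOCT4 cells at 1%. Of 80 tested, 68 (85%) were lower and 0 higher, beside 13.1% and 13.5% of all genes. Their median difference was -1.37, against 0.01 over all genes. Their median ratio was 0.915 and 0.928 in control cells at 20% and 0.340 and 0.350 in siOCT4 cells at 1%. The same median reached 0.848 and 0.904 with siOCT4 at 20%, and 0.989 and 0.837 in the controls at 1%, so the siOCT4 cultures at 1% were the lowest of the 8. Relative to GC content and length together, 56 of the 80 were lower and 0 higher, with a median of -1.11. Length in this correction, here and below, is that of the whole transcript, so it does not remove the trend with coding length. With quantile normalization 15 were lower and 0 higher, with a median of -1.24. The counts were 38 and 43 without siOCT4 replicate 1 or 2 at 1%, and 59 to 71 without any other culture. The median coding length of these mRNAs is 463.5 bases. Other mRNAs coding for less than 500 bases, outside the ribosomal and respiratory lists, had a median of -0.71 as deposited. Relative to GC content and transcript length their median was -0.36.

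RPS21, a protein of the small subunit, had ratios of 1.14 and 0.815 in control cells at 20% and 0.183 and 0.160 in siOCT4 cells at 1%, 5.63-fold lower (-2.49 ± 0.23, limma adjusted p = 0.00419). RPS27A, which is made as a fusion with ubiquitin, had ratios of 2.12 and 2.08 against 0.368 and 0.383 and was 5.59-fold lower (-2.48 ± 0.12, limma adjusted p = 0.00300). RPL7 of the large subunit went from 4.81 and 4.23 to 0.767 and 0.849, a 5.59-fold fall. In these genes both siOCT4 cultures at 1% lay below all 6 other cultures. RPL36AL (-2.48), RPL34 (-2.32), RPL39 (-2.15) and RPS24 (-2.08) fell by similar log2 differences, and RPL19 (-0.66, limma adjusted p = 0.0406) was the least changed of the 68 called and lost its call without 6 of the 8 cultures. RPL8 (-0.66 ± 0.40, limma adjusted p = 0.271) and RPL36 (-1.62 ± 0.47, limma adjusted p = 0.0510) were among the 12 not called. Processed pseudogenes could take part of the reads of this family.

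Ribosomal protein mRNAs start with a pyrimidine tract through which mTORC1 acts, so the start sites of 6 members with large falls are shown, beside 2 of the host RNAs described next, which also fell, and 2 genes that rose. RPL7 is not shown. Each window holds 30 bases before and 30 from the annotated start on, from the RefSeq promoter table (GRCh38.p14, another build than that of the files, matched by symbol). Capitals mark a C within 5 bases of the start, on the gene's strand, followed by at least 5 bases that are each C or T. A run that begins earlier is marked only from its first C within this distance, as in RPL34 and RPL36AL. SNHG5 and ZFAS1 carry no mark, but their annotated first base is a C followed by a stretch of C and T shorter than 5 bases.
RPS21, chr20:62387073-62387132, plus strand: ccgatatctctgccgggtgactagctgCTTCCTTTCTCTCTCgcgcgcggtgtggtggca
RPL39, chrX:119791601-119791660, minus strand: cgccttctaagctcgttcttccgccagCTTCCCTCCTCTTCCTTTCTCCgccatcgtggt
RPS24, chr10:78033833-78033892, plus strand: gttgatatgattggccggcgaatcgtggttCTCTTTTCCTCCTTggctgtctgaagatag
RPL34, chr4:108620546-108620605, plus strand: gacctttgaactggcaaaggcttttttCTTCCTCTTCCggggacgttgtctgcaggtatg
RPL36AL, chr14:49620597-49620656, minus strand: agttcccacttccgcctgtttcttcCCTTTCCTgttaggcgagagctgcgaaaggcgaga
RPS27A, chr2:55231873-55231932, plus strand: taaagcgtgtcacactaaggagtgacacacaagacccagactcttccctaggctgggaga
SNHG5, chr6:85678704-85678763, minus strand: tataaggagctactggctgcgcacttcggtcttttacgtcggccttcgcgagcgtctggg
ZFAS1, chr20:49278612-49278671, plus strand: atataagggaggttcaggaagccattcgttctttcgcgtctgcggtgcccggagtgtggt
GDF15, chr19:18386128-18386187, plus strand: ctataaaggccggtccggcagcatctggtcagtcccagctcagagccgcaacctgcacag
JUN, chr1:58784018-58784077, minus strand: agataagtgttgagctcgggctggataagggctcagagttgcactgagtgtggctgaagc

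Such a run was present in 48 of the 64 ribosomal protein genes with a window (75%), against 11.05% of all 27305 promoter windows and 11.8% of the genes tested that had one. The runs of RPS21, RPL39 and RPS24 are 15, 22 and 14 bases long. The 48 ribosomal protein genes with a run had a median difference of -1.61, with 41 lower, and the 16 without one had a median of -1.16, with 15 lower. Over all genes tested the median was -0.06 with a run (1411 genes) and 0.00 without (10572 genes). A run was found in 14.0% of the genes called lower, 10.6% of those called higher and 11.6% of those not called. A match is a description of the letters and not a mapped start site.

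Several host RNAs of small nucleolar RNAs, which are spliced like mRNAs but code for no long protein, also fell. Of the long non-coding RNAs tested 34.6% were called lower and 7.69% higher, beside 13.1% and 13.5% of all genes. Of 26 long non-coding RNAs tested, 9 were lower and 2 higher (3 and 0 without siOCT4 replicate 1 at 1%, 4 and 0 without replicate 2), and 8 of the 9, all but NORAD, are such hosts, a grouping made after the values were seen. SNHG5 had ratios of 0.678 and 0.704 in control cells at 20% and 0.206 and 0.159 in siOCT4 cells at 1%, 3.82-fold lower (-1.93 ± 0.25, limma adjusted p = 0.00641). ZFAS1 went from 2.44 and 1.99 to 0.588 and 0.647 (-1.84 ± 0.16, limma adjusted p = 0.00382) and GAS5 from 1.90 and 1.42 to 0.639 and 0.582 (-1.43 ± 0.18, limma adjusted p = 0.00594). For all 3, both siOCT4 cultures at 1% lay below the 6 others. The hosts SNHG1 (-0.01 ± 0.14), SNHG3 (0.19 ± 0.20), SNHG7, SNHG12 and SNHG15 were not called. Among RNAs retained in the nucleus, NEAT1 was higher (0.360 and 0.608 in control cells at 20%, 1.25 and 1.34 in siOCT4 cells at 1%, 1.47 ± 0.27, limma adjusted p = 0.0142). The call was lost without siOCT4 replicate 1 or 2 at 1%, and relative to GC content and length (0.64, limma adjusted p = 0.149). It was also lost with quantile normalization (limma adjusted p = 0.0610) and in a fit on the 2 groups alone (0.0651). In control cells at 1% the NEAT1 ratios were 5.79 and 4.69. MALAT1 was not called (0.94 ± 0.68), with control ratios of 1.14 and 5.10.

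Mitochondrial gene groups, whose proteins are mostly small, also had lower ratios. Over all genes 13.1% were called lower and 13.5% higher. Of 78 nuclear-encoded subunits of the respiratory chain, which transfers electrons to oxygen, 56 were lower and 1, NDUFS1, higher (0.61 ± 0.13; call lost without 5 of the 8 cultures), with a median of -1.14 (-0.65 relative to GC content and length). Of 81 mitochondrial ribosomal proteins 45 were lower and 0 higher (median -0.88), and of 26 genes of mitochondrial protein import 14 were lower and 0 higher (median -0.82). With quantile normalization only 7, 1 and 0 genes of the 3 groups were lower, with medians of -0.89, -0.65 and -0.60. The lower counts of the 3 groups were 27, 13 and 9 without siOCT4 replicate 1 at 1%, and without replicate 2 they were 38, 20 and 10. The start-site run was present in 4 of 73 mitochondrial ribosomal protein genes with a window (5.48%). It was present in 12 of 64 respiratory chain genes (18.75%) and 5 of 23 import genes (21.7%), beside 11.8% of the genes tested.

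NDUFB3 and NDUFS4, subunits of complex I, were 4.91-fold and 4.63-fold lower (limma adjusted p = 0.00456 and 0.00300). NDUFB3 had ratios of 3.90 and 4.57 in control cells at 20% and 0.918 and 0.803 in siOCT4 cells at 1%, and NDUFS4 went from 4.70 and 5.20 to 0.963 and 1.18. COX7C of cytochrome c oxidase went from 2.77 and 2.29 to 0.575 and 0.550 (-2.16 ± 0.14). CYCS, cytochrome c itself, went from 5.51 and 6.40 to 1.65 and 1.68 (-1.84 ± 0.16). Among the import genes TOMM7, a small subunit of the outer membrane translocase, went from 1.97 and 2.20 to 0.506 and 0.487 (-2.07 ± 0.23), and TIMM10, a chaperone of the intermembrane space, from 1.50 and 1.51 to 0.460 and 0.419 (-1.78 ± 0.23). MRPL1, with an AT-rich transcript, fell from 8.56 and 8.50 to 1.90 and 1.79 (-2.21 ± 0.16; limma adjusted p = 0.00300), and its ratios in siOCT4 cells at 20% (1.34 and 1.48) and control cells at 1% (0.966 and 1.21) were lower still. As deposited, the control cells at 20% thus stood far above the other 6 cultures for MRPL1. For TOMM7, COX7C and NDUFB3 the siOCT4 cells at 1% were the lowest of the 8 cultures. GC corrected, MRPL1 was lower in siOCT4 cells at 1% than in siOCT4 cells at 20% (-1.01, limma adjusted p = 0.00421). It was also lower than in control cells at 1% (-0.92, limma adjusted p = 0.00346).

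The proteasome, which degrades ubiquitinated proteins, had 22 of 39 genes lower and 1 higher, PSMD1 (0.58 ± 0.12; call lost without 4 of the 8 cultures), a large subunit of its regulatory particle. Called lower were 56.4% of its genes and higher 2.56%, beside 13.1% and 13.5% of all genes. Its median was -0.63, and -0.34 relative to GC content and length, where 12 were lower and 3 higher. PSMA4, a small subunit of the core ring, had ratios of 9.07 and 6.80 in control cells at 20% and 1.50 and 1.62 in siOCT4 cells at 1% (limma adjusted p = 0.00300). PSMA3, of the same ring, went from 7.56 and 4.54 to 1.13 and 1.21 (limma adjusted p = 0.00478). The lower count was 5 without siOCT4 replicate 1 at 1%, 9 without replicate 2, 15 without control replicate 1 at 20%, and 16 to 21 without any other culture.

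**Figure D2:**
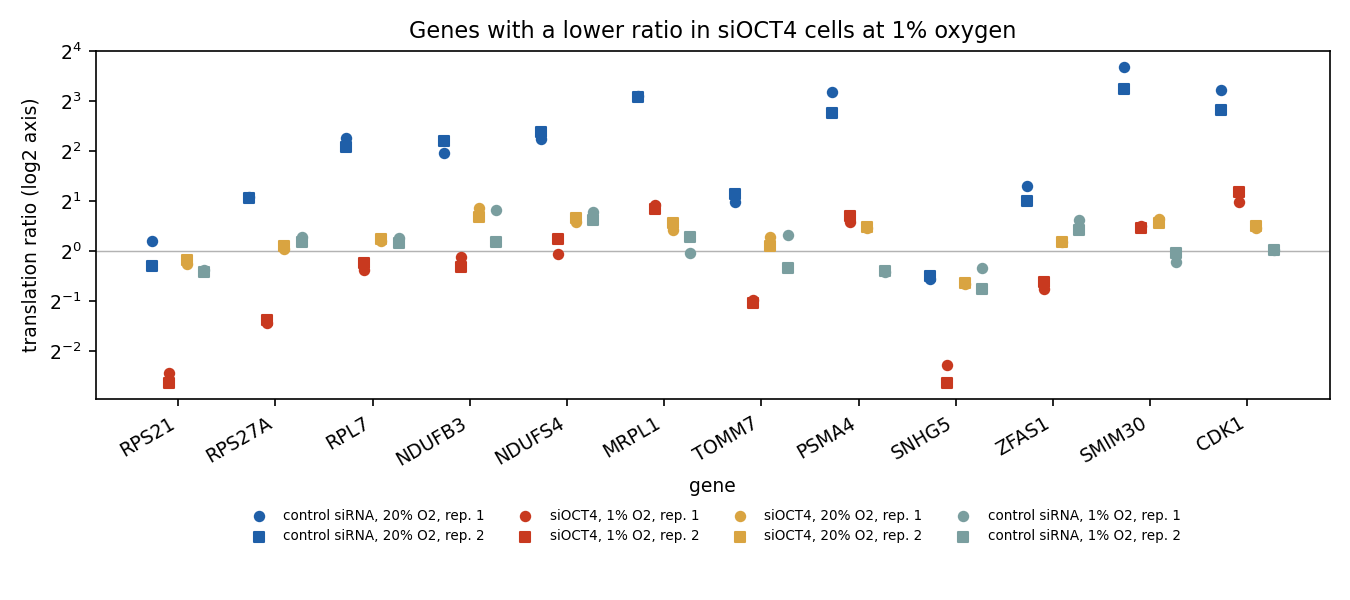
Translation ratio (log2 axis) of 12 genes with a lower ratio in siOCT4 cells at 1% oxygen, in each of the 8 cultures (1 point per culture). RPS21, NDUFB3, TOMM7 and the host RNAs SNHG5 and ZFAS1 are lowest in the 2 siOCT4 cultures at 1%, whereas for MRPL1, PSMA4, SMIM30 and CDK1 the 2 control cultures at 20% are the highest and the rest are closer together. Ratios are as deposited. GC corrected, MRPL1, PSMA4, SMIM30 and CDK1 were lower in siOCT4 cells at 1% than in siOCT4 cells at 20% (-1.53 to -0.81). They were also lower than in control cells at 1% (-1.16 to -0.43).

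Among the genes that rose most were several known as induced by stress. GDF15, a cytokine secreted under cellular stress, had ratios of 0.0146 and 0.0210 in control cells at 20% and 0.510 and 0.455 in siOCT4 cells at 1%, 27.5-fold higher (4.78 ± 0.31, limma adjusted p = 0.00300). TXNIP, an inhibitor of thioredoxin and of glucose uptake, went from 0.223 and 0.206 to 3.72 and 3.55, 17.0-fold higher (4.08 ± 0.13, limma adjusted p = 0.000933). JUN, a subunit of AP-1, went from 0.0888 and 0.109 to 1.45 and 1.38, 14.4-fold higher (3.85 ± 0.20, limma adjusted p = 0.00300). In each the groups did not overlap, which the naming rule required of these genes and which was so for 64.9% of all genes. Each call held without any of the 8 cultures. The GDF15 call was lost in a fit on the 2 groups alone (limma adjusted p = 0.0637). BHLHE40, a transcriptional repressor induced by hypoxia, was 11.9-fold higher, ARRDC3, an arrestin related to TXNIP, 9.51-fold, DUSP8, which dephosphorylates JNK and p38, 8.63-fold, and CREB5, a partner of JUN, 8.49-fold.

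Several of these values lay between those of control cells at 20% and at 1%. For GDF15 the ratios were 0.884 and 1.04 with siOCT4 at 20% and reached 3.36 and 2.54 in the controls at 1%, so that siOCT4 cells at 1% stood below control cells at 1% (-2.60, limma adjusted p = 0.000999; GC corrected -1.75, adjusted p = 0.00116). Limma called 41.1% of genes higher and 19.9% lower in that comparison, and 37.4% higher and 21.6% lower against siOCT4 cells at 20%, both between a steep and a flat GC trend. DUSP8 (0.599 and 0.558 against 2.47 and 2.22) and JUN (1.45 and 1.38 against 3.58 and 2.78) were likewise below control cells at 1%. TXNIP was not called there as deposited (0.11, limma adjusted p = 0.481), and GC corrected it was lower (-1.19, adjusted p = 0.00133).

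Immediate early genes are transcribed within minutes of a stimulus. Of 33 AP-1, immediate early and MAP kinase phosphatase genes, 19 were higher and 0 lower (57.6% and 0%, median 0.98), beside 13.5% and 13.1% of all genes. GC corrected the counts were 18 and 2, and relative to GC content and length 19 and 4. Of the 19 calls, 5 rested on a ratio shared with at least 2 other genes of a culture. FOSL2, another AP-1 subunit, was 3.75-fold higher (0.281 and 0.335 against 1.14 and 1.17) and KLF6, a zinc finger factor, 5.03-fold (0.879 and 0.696 against 4.17 and 3.72). FOS itself was 2.01-fold higher (1.01 ± 0.19, limma adjusted p = 0.0144) and MYC 1.88-fold (0.91 ± 0.17, limma adjusted p = 0.0148), each call lost without 3 of the 8 cultures (highest adjusted p = 0.0838 and 0.0899). Without siOCT4 replicate 1 at 1% 5 of the 33 were higher, without replicate 2 7, without control replicate 1 at 20% 12, and without the other cultures 13 to 21.

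The list of the integrated stress response holds ATF4, the transcription factor made when eIF2 is phosphorylated, and its targets, and 18 of its 45 genes were higher and 1 lower (median 0.49; 6 and 0 without either siOCT4 culture at 1%). DDIT3, the factor CHOP, went from 0.201 and 0.245 to 1.67 and 1.49 (2.83 ± 0.15, limma adjusted p = 0.00300), ATF3 from 0.161 and 0.249 to 1.19 and 1.18 (2.56 ± 0.24, limma adjusted p = 0.00433), and TRIB3, a pseudokinase that restrains ATF4, from 0.115 and 0.119 to 0.550 and 0.535 (2.21 ± 0.16, limma adjusted p = 0.00300). CTH, an enzyme of cysteine synthesis, was 3.50-fold higher. In this list 40% of genes were called higher and 2.22% lower, beside 13.5% and 13.1% of all genes. The 1 gene that fell was ATF4 (1.17 and 1.46 against 0.840 and 0.835, -0.64 ± 0.17, limma adjusted p = 0.0370), whose own mRNA is read better under eIF2 phosphorylation; the call was lost without 5 of the 8 cultures (highest adjusted p = 0.143).

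Heat shock proteins were mixed, with 34.4% called higher and 6.25% lower, beside 13.5% and 13.1% of all genes. Of 32 chaperones and co-chaperones 11 were higher and 2 lower (median 0.23; 5 and 1 without either siOCT4 culture at 1%). HSPA1A and HSPA1B, near-identical inducible HSP70 genes whose reads could be split between them, were 8.08-fold and 7.68-fold higher. BAG3, a co-chaperone, was 4.21-fold and HSP90AB1, the constitutive HSP90, 2.70-fold higher. HSPE1, the small mitochondrial co-chaperonin, fell 3.27-fold (-1.71 ± 0.22, limma adjusted p = 0.00615).

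**Figure D3:**
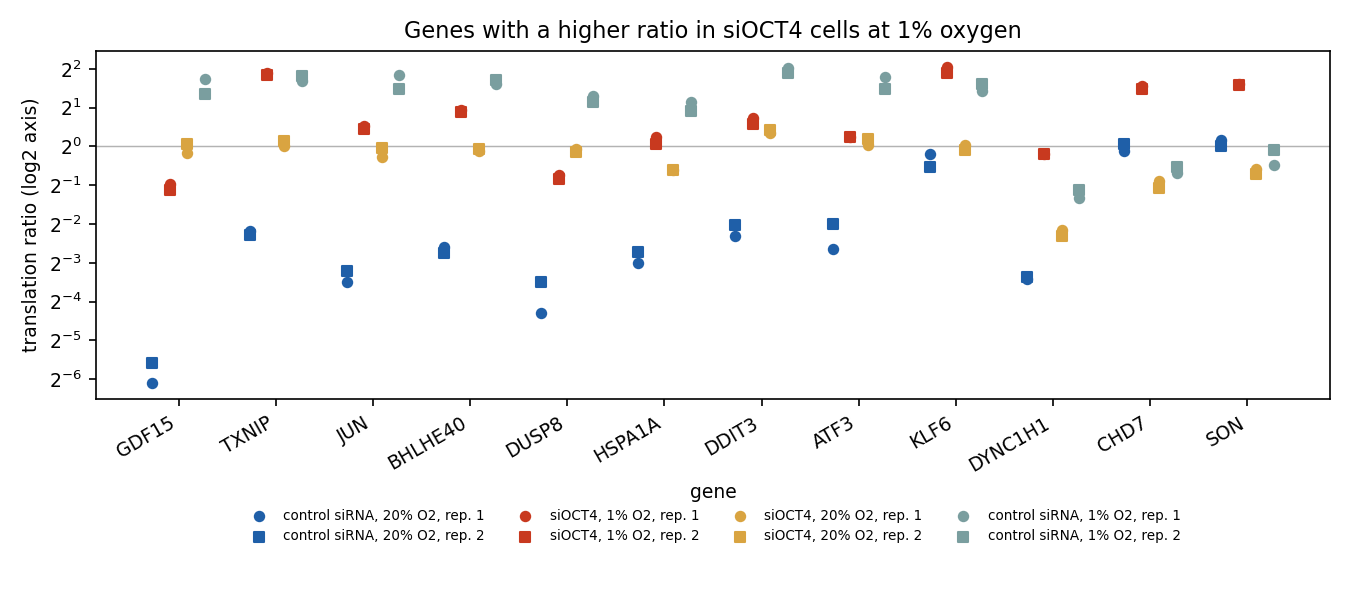
Translation ratio (log2 axis) of 12 genes with a higher ratio in siOCT4 cells at 1% oxygen, in each of the 8 cultures (1 point per culture). For GDF15, JUN, DUSP8 and DDIT3 control cells at 1% are highest and control cells at 20% lowest, whereas DYNC1H1, CHD7 and SON, which have long open reading frames, are highest in the 2 siOCT4 cultures at 1%.

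Of 62 HIF-responsive genes, 18 were higher and 2 lower (median 0.23). The counts were 18 and 8 GC corrected, 13 and 7 with median centring, and 13 and 6 relative to GC content and length. As deposited, 6 and 5 were higher without siOCT4 replicate 1 or 2 at 1%, and 12 without either siOCT4 culture at 20%. Beside TXNIP and BHLHE40, DDIT4 was 4.98-fold and NDRG1 2.63-fold higher, and both were below control cells at 1% (-2.82 and -1.67). Both calls were lost in a fit on the 2 groups alone (limma adjusted p = 0.0756 and 0.0777). Among parts of the HIF pathway itself, ARNT, the constant partner of HIF, was 2.04-fold higher, and HIF1AN, the oxygen-dependent hydroxylase that inhibits HIF, 2.08-fold. HIF1A was not called (0.01 ± 0.21; 6.10 and 4.64 against 5.31 and 5.42), nor was CA9, a carbonic anhydrase of hypoxic cells (-0.34 ± 0.96). Of 25 glycolysis genes 3 were higher and 1 lower (1 and 5 with median centring, 3 and 5 GC corrected), beside 13.5% and 13.1% of all genes. The gene that fell, LDHB, the lactate dehydrogenase subunit that favours pyruvate, went from 3.30 and 3.24 to 1.20 and 1.32 (-1.38 ± 0.12, limma adjusted p = 0.00419). LDHA and HK2 were 1.58-fold and 1.93-fold higher, the former call lost without 5 of the 8 cultures and the latter without either siOCT4 culture at 1% (highest limma adjusted p = 0.114 and 0.0713). Both are counted in the HIF-responsive list too, which shares 6 genes with the glycolysis list.

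Chromatin modifiers and matrix proteins have long open reading frames. Among the chromatin modifiers 58.8% were called higher and 2.94% lower, beside 13.5% and 13.1% of all genes. Of 34 chromatin modifiers, 20 were higher and 1 lower, HDAC2 (-0.85 ± 0.12; call lost without either siOCT4 culture at 1%), with a median of 0.64, and 0.21 relative to GC content and length, where 16 were higher and 1 lower. SETDB1, a histone H3 lysine methyltransferase, went from 0.445 and 0.513 to 1.88 and 1.63 (1.87 ± 0.15, limma adjusted p = 0.00349), and CHD7, a chromatin remodeller, from 0.921 and 1.04 to 2.96 and 2.81 (1.56 ± 0.15, limma adjusted p = 0.00433). The demethylases KDM5B and KDM6B were 2.91-fold and 3.12-fold higher. Of the 34, 6 and 7 were higher without siOCT4 replicate 1 or 2 at 1%, and 13 without either siOCT4 culture at 20%.

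DYNC1H1, the heavy chain of dynein and one of the longest coding sequences tested (13938 bases), went from 0.0936 and 0.0969 to 0.878 and 0.870, 9.18-fold higher (3.20 ± 0.31, limma adjusted p = 0.00441), and by 2.12 relative to GC content and length. ACACA, the enzyme that starts fatty acid synthesis, rose 3.19-fold (1.67 ± 0.14, and 0.83 relative to GC content and length). For the groups that follow, 13.5% of all genes were called higher and 13.1% lower. The shares were 21.6% and 2.70% for splicing factors, and 22.9% and 6.25% for matrix genes. Among splicing factors, 8 of 37 were higher and 1 lower (3 and 4 higher without siOCT4 replicate 1 or 2 at 1%), led by SRRM2 (1.87 ± 0.23) and SON (1.50 ± 0.17), large proteins of nuclear speckles. Of 48 collagens, laminins and other matrix genes 11 were higher and 3 lower (median 0.41), but relative to GC content and length 5 were higher and 7 lower (median -0.06), so the direction of this group turned. Only 4 and 7 were higher without siOCT4 replicate 1 or 2 at 1%. THBS1, thrombospondin 1, was 3.86-fold higher (0.413 and 0.459 against 1.69 and 1.67; 1.35 relative to GC content and length) and COL12A1 3.47-fold (1.04 and 0.941 against 3.20 and 3.70). The 489 genes with ZNF symbols, mostly transcription factors of the zinc finger family, had 104 higher and 20 lower (21.3% and 4.09%, median 0.22; 74 and 46 with median centring, 19 and 5 without siOCT4 replicate 1 at 1%, 26 and 3 without replicate 2, 55 and 19 without control replicate 1 at 20%, 66 and 13 or 67 and 14 without a siOCT4 culture at 20%).

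**Figure D4:**
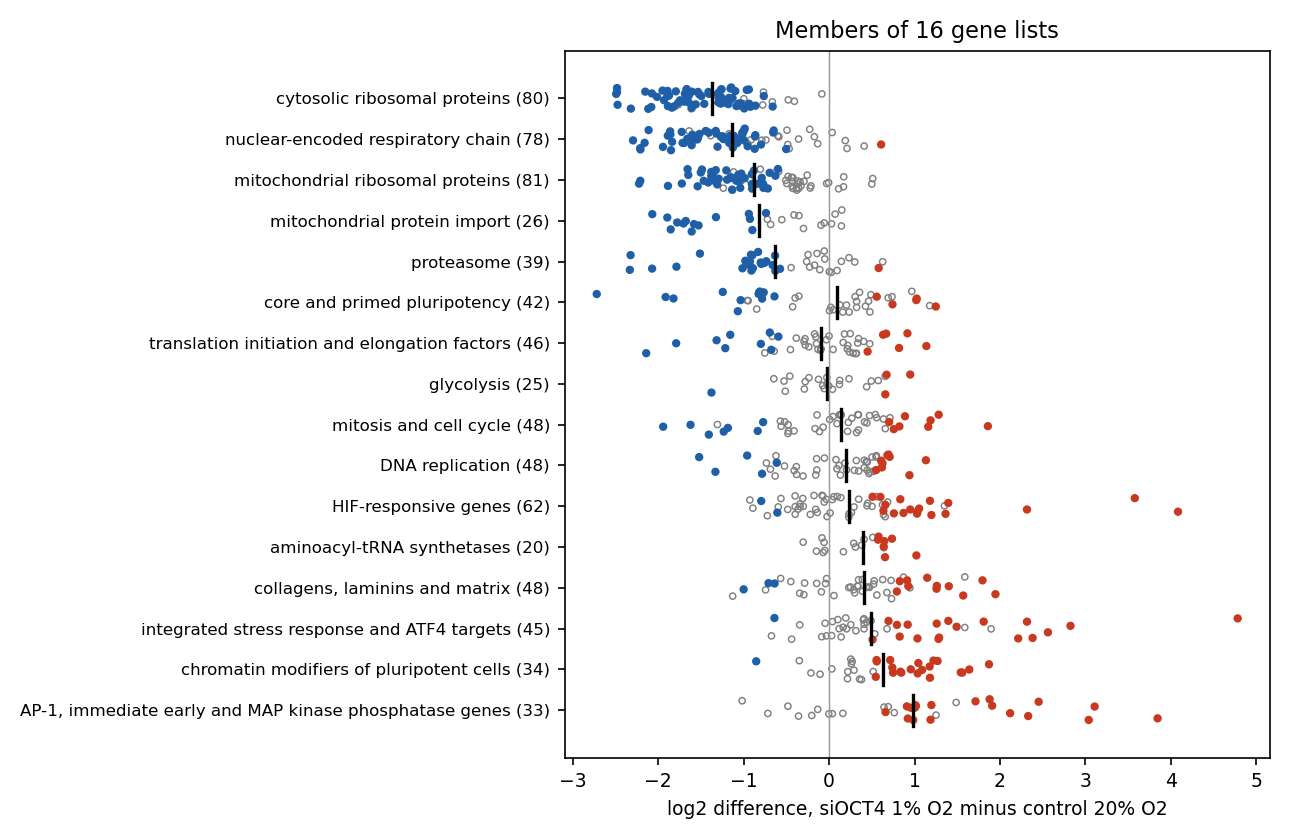
Log2 difference of the translation ratio for each member of 16 gene lists (points, jittered in height; filled red higher and blue lower at a limma adjusted p under 0.05, open not called; number tested in brackets), with the list's median as a black bar. Ribosomal, respiratory, import and proteasome genes lie to the left, with medians of -1.37 to -0.63, and chromatin, stress and AP-1 genes to the right, with medians of 0.49 to 0.98.

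Of 46 translation initiation and elongation factors 6 were higher and 9 lower (13.04% and 19.6%, beside 13.5% and 13.1% of all genes; 2 and 13 with median centring, 7 and 13 GC corrected). EIF3E and EIF3M, smaller subunits of eIF3, fell 4.41-fold and 3.46-fold, while EIF3A, its largest subunit, was 2.20-fold higher (1.55 and 1.94 against 3.81 and 3.82, 1.14 ± 0.15, limma adjusted p = 0.00650). EIF4E, the cap-binding protein, fell 2.23-fold (7.25 and 7.11 against 3.18 and 3.25; -0.40 relative to GC content and length). EIF4G1, the scaffold of the cap complex, was 1.76-fold higher (0.82 ± 0.22, limma adjusted p = 0.0416). The EIF3M call was lost without siOCT4 replicate 1 at 1% (adjusted p = 0.0516) and that of EIF4G1 without 7 of the 8 cultures. Of 20 aminoacyl-tRNA synthetases 7 were higher and 0 lower (median 0.40), with 0 called without either siOCT4 culture at 1%, 3 without control replicate 2 at 20% and 2 without either siOCT4 culture at 20%. MTOR, the kinase, was 2.31-fold higher (1.21 ± 0.14; 0.41 relative to GC content and length), a call lost without siOCT4 replicate 1 at 1% (adjusted p = 0.0519), and TSC1, its inhibitor, 2.09-fold (0.29 relative to both).

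Core and primed pluripotency genes moved in both directions, and lower calls were the more frequent. Of 42, 5 were higher and 12 lower (11.9% and 28.6%), beside 13.5% and 13.1% of all genes, with a median of 0.09. The counts were 6 and 14 GC corrected, and 4 and 16 with median centring (median -0.10). Fewer were called in both directions when either siOCT4 culture at 1%, or either one at 20%, was left out. NANOG, a core factor beside OCT4, had ratios of 2.31 and 2.23 in control cells at 20% and 2.02 and 2.57 in siOCT4 cells at 1%, a difference of 0.00 ± 0.22 that was not called (limma adjusted p = 0.993). SOX2, the partner of OCT4 on DNA, was 2.38-fold higher (0.978 and 1.30 against 2.63 and 2.74, 1.25 ± 0.21, limma adjusted p = 0.0113), a call lost without either siOCT4 culture at 1% (highest adjusted p = 0.0619). APELA, a short peptide hormone of embryonic stem cells, fell 3.77-fold (18.2 and 12.9 against 3.36 and 4.91; limma adjusted p = 0.00634), and its ratios in control cells at 1% were 0.0666 and 0.0757. POLR3G, a subunit of RNA polymerase III, fell 3.54-fold and CD24, a surface glycoprotein, 2.37-fold, the latter call lost without siOCT4 replicate 1 at 1% (adjusted p = 0.0508). LIN28A (-0.64 ± 0.14), LIN28B (-0.82 ± 0.20) and TDGF1, a co-receptor of NODAL (-0.83 ± 0.16), were lower, each call lost without 3 or more cultures.

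Lists of markers of other cell types were short, and over all genes 13.5% were called higher and 13.1% lower. The share higher was 26.1% for neuroectoderm and neural crest and 36.4% for naive pluripotency markers. For primitive streak, mesoderm and endoderm markers it was 9.09%, for trophectoderm markers 7.69% and for fibroblast markers 0%. Neuroectoderm and neural crest markers had 6 of 23 higher and 0 lower (median 0.64; 1 without either siOCT4 culture at 1%), among them DCX, a microtubule protein of young neurons (2.66 and 2.88 against 5.87 and 6.53, 1.16 ± 0.15, limma adjusted p = 0.00615). Of 22 primitive streak, mesoderm and endoderm markers 2 were higher, of 13 trophectoderm markers 1 was higher and 1 lower, and of 10 fibroblast markers 2 were lower. None of these 6 calls held without each of the 8 cultures in turn, and the 4 streak and trophectoderm calls rest on ratios shared with other genes. Naive pluripotency markers had 4 of 11 higher, among them KLF5, a transcription factor (0.699 and 0.371 against 3.54 and 3.01). All 4 shared a ratio with at least 2 other genes of a culture, which happens at small read numbers. As ratios these values do not show how many cells of a type were present.

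As deposited, genes of the cell cycle were called about as often as all genes (13.5% higher, 13.1% lower). GC corrected, 17.9% of all genes were higher and 18.9% lower. There the mitosis and DNA replication lists had a larger share higher and a similar share lower. CDK1, the kinase of mitotic entry, fell 3.85-fold (9.33 and 7.09 against 1.98 and 2.26) and MAD2L1, a checkpoint protein, 3.08-fold (5.91 and 4.98 against 1.79 and 1.74), while MKI67, a very large chromosome surface protein, was 3.63-fold higher (0.476 and 0.738 against 2.27 and 2.04; 0.94 relative to GC content and length). The MKI67 call was lost without siOCT4 replicate 1 at 1% (limma adjusted p = 0.0525). Of 48 mitosis genes 8 were higher and 7 lower (7 and 8 with median centring, 17 and 9 GC corrected), and of 48 DNA replication genes 9 and 5 (4 and 9 with median centring, 14 and 9 GC corrected). Without siOCT4 replicate 1 at 1% the counts were 0 and 3 for mitosis and 0 and 1 for replication, without replicate 2 3 and 4, and 1 and 2. GMNN, the inhibitor of replication licensing, fell 2.87-fold (-1.52 ± 0.17, limma adjusted p = 0.00517).

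The remaining groups had members that moved in both directions, beside 13.5% higher and 13.1% lower over all genes. Of 27 ER chaperones and unfolded protein response genes 4 were higher and 8 lower. ERN1, the sensor IRE1, was 3.32-fold higher (1.73 ± 0.24, limma adjusted p = 0.00686), and SEC61B, a small subunit of the ER translocon, fell 2.65-fold. Of 32 p53 pathway genes 9 were higher and 3 lower (1 and 2 without siOCT4 replicate 1 at 1%), with XPC, a DNA damage sensor, 2.60-fold higher and CCNG1, cyclin G1, 2.82-fold lower. Of 47 NODAL, BMP, FGF and WNT genes 8 were higher and 9 lower (5 and 14 with median centring), with SPRY4, a feedback inhibitor of FGF signalling, 2.30-fold higher. Of 33 cholesterol and fatty acid genes 2 were higher and 2 lower (8 and 8 GC corrected), of 32 autophagy genes 4 and 5 (9 and 8 GC corrected), of 25 mTORC1 pathway genes 6 and 2 (7 and 8 GC corrected), of 25 interferon and antigen presentation genes 2 and 6, and of 22 histone genes 1 and 5. ATG5, which lipidates autophagosome membranes, fell 3.23-fold, and H2AFZ, the histone variant H2A.Z, 2.48-fold. Without siOCT4 replicate 1 at 1% between 1 and 4 genes of each of these 8 groups were called, and without replicate 2 between 2 and 5. Without either siOCT4 culture at 20% the lower calls were 4 ER, 3 NODAL to WNT, 3 interferon, 3 autophagy and 3 histone genes.

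Large falls were also called outside these lists. SMIM30, a micropeptide gene, had ratios of 12.9 and 9.46 in control cells at 20% and 1.41 and 1.37 in siOCT4 cells at 1%, 7.94-fold lower (-2.99 ± 0.18, limma adjusted p = 0.00300), and -1.78 relative to GC content and length. METTL5, a methyltransferase of 18S rRNA, went from 8.06 and 6.59 to 1.15 and 1.16, and NTS, the precursor of neurotensin, from 8.71 and 6.89 to 1.12 and 1.40. TMEM126A and TMEM126B, paralogs involved in respiratory complex assembly, fell 6.31-fold and 5.87-fold, and CCNC, cyclin C of Mediator, 5.76-fold. For SMIM30 the ratios were 1.56 and 1.48 with siOCT4 at 20% and 0.858 and 0.972 in the controls at 1%. As deposited, only the control cells at 20% thus stood far above the rest. GC corrected, SMIM30 was lower in siOCT4 cells at 1% than in siOCT4 cells at 20% (-1.53, limma adjusted p = 0.00291). It was also lower than in control cells at 1% (-1.16, limma adjusted p = 0.00135). NTS (1.47 and 1.46 with siOCT4 at 20%, 0.341 and 0.316 in the controls at 1%) had the same highest group as deposited. GC corrected, NTS was lower than in siOCT4 cells at 20% (-1.59, limma adjusted p = 0.00418). Against control cells at 1% it was not called (0.14, limma adjusted p = 0.625). RIDA, a deaminase, and HNF4G, a nuclear receptor, fell 6.17-fold and 5.74-fold. D21S2088E, a lincRNA in the annotation, fell 10.1-fold. POMC, the precursor of ACTH, fell 8.30-fold, but its 2 siOCT4 ratios (0.0219 and 0.0984) differed widely and its call was lost without 4 of the 8 cultures (highest limma adjusted p = 0.0862).

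**Figure D5:**
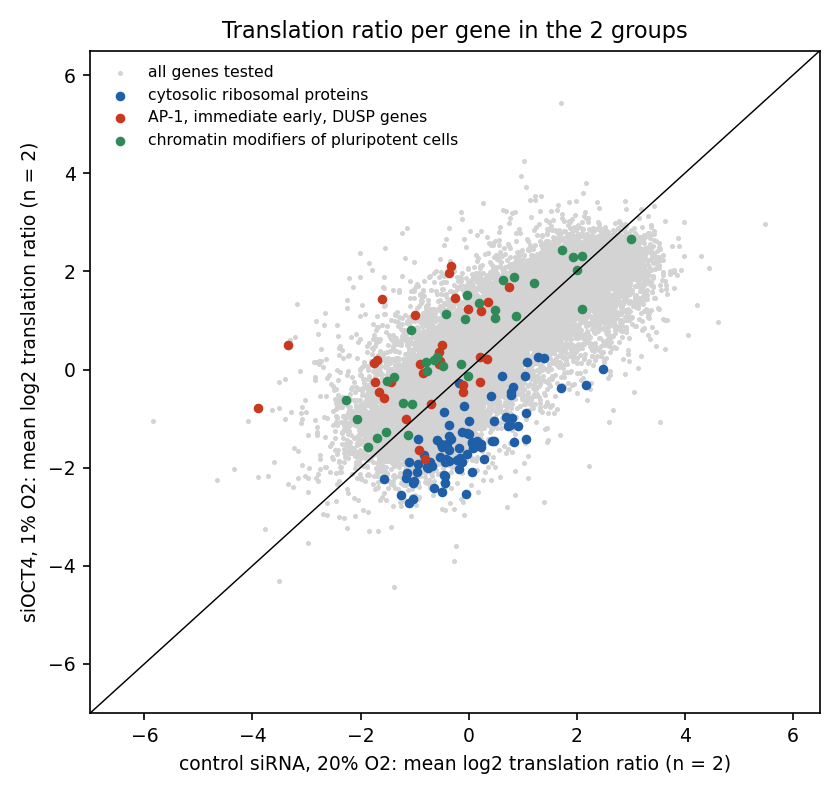
Mean log2 translation ratio of each of the 15864 genes (n = 2 cultures per group) in control cells at 20% oxygen (horizontal) and siOCT4 cells at 1% oxygen (vertical), with the line of equality. Cytosolic ribosomal proteins lie below the line, and most AP-1, immediate early and DUSP genes and chromatin modifiers lie above it.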

How the data were processed

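Total RNA and ribosome-nascent chain RNA of H9 cells were sequenced in 16 libraries, and the authors deposited 1 table with a translation ratio per gene and culture. The deposited value is a linear ratio. Per the submitters' processing notes, hg19 and edgeR were used; for the aligner, the annotation and the scaling between libraries the sources used here state nothing. A log2 of each ratio was taken and limma 3.58.1 (R 4.3.3, statmod 1.5.0), with trend and robust settings, was fitted to all 8 columns with 1 mean per group (4 residual degrees of freedom). Only genes with a ratio in every column entered, with Benjamini-Hochberg adjustment over all 15864 and a threshold of 0.05. The table has no counts, so depth per sample is unknown and no count test was run. GC content, length and gene type came from GENCODE 29 by symbol (15352 genes, 96.8%), and correction subtracted a spline with 6 degrees of freedom from each column. Correction for length used the length of the whole transcript and not that of its coding part. A ratio counted as shared when at least 3 genes of a column had it within a relative 2e-06. Start-site windows were matched by symbol. Named genes are POU5F1, the 10 largest calls in each direction that were also called GC corrected, had groups that did not overlap and held no shared ratio, and up to 4 called members per list without a shared ratio (2 members where none was called); members outside this rule were chosen after their values were seen. The comparison, its members and the lists were chosen with earlier results of these data known. Scripts were tested on simulated data. Summaries were made with pandas 2.3.3 and numpy 2.4.6 under Python 3.11.15, and with scipy 1.17.1; figures used matplotlib 3.10.9. Alternatives tried were median centring, quantile normalization, GC and length correction, 2 pseudocounts, the groups and genes entered, a replicate block and leaving out each culture.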

Additional observations from a re-analysis of the deposited data

How the results depend on the processing

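The counts of higher and lower genes stayed within 1.5 times of 2135 and 2072 with GC correction, GC and length correction, median centring, pseudocounts of 0.01 or 0.1, plain limma settings, genes filtered on the 4 columns compared and genes with a shared ratio left out. Quantile normalization left 59 higher and 94 lower, and a fit on only the 2 groups compared gave 769 and 666. In both, 0 of the calls made here turned in direction. Of the 132 named genes called, 38 were called with quantile normalization and 98 with only the 2 groups. With quantile normalization 3 proteasome genes were lower, and 4 stress response, 5 AP-1 and immediate early and 1 of the chromatin genes were higher. Without 1 culture the counts ran from 485 to 2124 higher and 505 to 1987 lower as deposited, and from 1456 to 2597 and 1494 to 2720 GC corrected (1689 and 1772 without siOCT4 replicate 2 at 1%). At an unadjusted limma p under 0.05 there were 6436 genes in all, 4707 without siOCT4 replicate 1 at 1% and 4985 without replicate 2. GC corrected, 3732 of the calls kept their direction and 0 turned; relative to GC content and length 2780 kept it and 3 turned. Of the named genes' values, 3379 kept direction and side of the threshold, 387 lost and 20 gained the call, and 2 turned in sign: DPPA3 without siOCT4 replicate 2 at 1%, GC corrected (0.0107, limma adjusted p = 0.991), and H3F3B relative to GC content and length (0.13, limma adjusted p = 0.809). The cause was not tested. Replicate numbers are shared by the groups, and whether they pair the cultures is not stated. Deviations of same-numbered cultures of the 2 groups compared had a correlation of -0.0368 as deposited and -0.0222 GC corrected. With 2 cultures per group this cannot settle it. With a replicate block 1503 genes were higher and 1389 lower, and 2364 and 2402 GC corrected. With 2 cultures per group and no counts, the precision of single ratios cannot be stated.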
